A study of Mus musculus with 24 samples.

Results

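From the FoxO program of muscle atrophy and autophagy, 10 genes were followed through the RNA-Seq counts of 4 tissues of Trex1-/- mice, namely Fbxo32, Trim63, Foxo1, Foxo3, Klf15, Sesn1, Bnip3, Map1lc3b, Gabarapl1 and Eif4ebp1. They were taken by symbol in the GENCODE M21 annotation, and are 10 of the 54532 genes counted in each sample. They were chosen by their log2 fold changes after SN-011 in these same samples, within each tissue and in striated tissue against stomach, so those changes are given as a description without a test. Trex1 encodes a DNA exonuclease whose loss lets the cGAS-STING pathway respond to self DNA, and SN-011 is a small molecule antagonist of STING.

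All 24 samples carried the Trex1 knockout (Trex1-KO in the labels), and no wild-type sample was analysed here. Heart, stomach, muscle and tongue were each represented by 3 control and 3 SN-011 samples. The labels give SN-011 at 5 mg/kg, 3 doses a week over 4 weeks, and name the controls untreated. The study's methods give another schedule, with a higher dose injected intraperitoneally every day over a shorter period into mice about a month old, and vehicle injections of Tween 80 in PBS for the controls. Neither source says whether same-numbered samples of different tissues came from 1 mouse, or names the muscle that was taken. Where samples did not come from separate mice, a p-value measures only the spread between these samples.

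FoxO transcription factors are held outside the nucleus when insulin and IGF-1 activate Akt, which phosphorylates them, and they enter the nucleus and switch on their targets when that signal falls, as in fasting. In skeletal muscle and heart these targets include the ubiquitin ligases that mark sarcomere proteins for the proteasome and genes of autophagy, the pathway that carries cell contents to the lysosome. Glucocorticoids raise several of the same genes in muscle, in part through the transcription factor Klf15.

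The total count was 14253416 to 18443329 per sample, at which 3 counts equal 0.163 to 0.210 CPM, the count scaled to library size, the smallest level taken as shown. This floor covers counting error only. Several libraries stood apart. The X-linked transcript Xist reached 3060 to 13811 counts in control replicate 1 of every tissue, with at most 3 counts of the Y-linked Ddx3y, against at most 20 and at least 825 in every other sample, so the SN-011 groups held no such library and each control group held 1. SN-011 replicate 2 of muscle had counts on 11546 genes, against at least 19798 elsewhere. Trex1 itself had 0 counts in every sample, but its exons overlap Atrip on the same strand, so this does not check the genotype. Of 10 stomach epithelium markers, 8 to 10 had a mean of at least 1 CPM in heart, muscle and tongue. Their summed level there was 27.4 to 53.7 CPM in control replicate 1, 323 to 3361 CPM in control replicates 2 and 3, and 7.93 to 57.9 CPM in the SN-011 samples. The labelled tissues carried their own markers, with a summed level of 14 striated muscle markers of at least 128500 CPM in muscle, 30930 in heart and 21220 in tongue, and of the 10 stomach epithelium markers of at least 23720 CPM in stomach.

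After SN-011, 10 of the 10 genes had a higher mean in heart and in muscle, 9 in tongue and 8 in stomach. The median log2 fold change over the 10 genes was 0.90 in heart, 1.63 in muscle, 0.66 in tongue and 0.93 in stomach, against -0.01, -0.08, -0.01 and 0.00 over all genes tested in those tissues. SN-011 and control samples did not overlap for 9 of the genes in heart, 10 in muscle, 4 in tongue and 6 in stomach, each time with SN-011 higher. Of all genes tested, 14.1% in heart, 14.7% in muscle, 9.4% in tongue and 17.8% in stomach did the same. At an adjusted p under 0.05, 5 of the genes passed in heart, where 0.848% of all genes passed, 0.52% on the higher side and 0.328% on the lower. With the same test, edgeR's quasi-likelihood test, 0 passed in muscle, tongue or stomach, where 0.0141%, 0% and 0% of all genes did (0.00704% on each side in muscle). Since these contrasts chose the genes, nothing was read from these counts or from the unadjusted ones that follow. In muscle, 10 of the genes had an unadjusted p under 0.05, as 8.96% of all genes did on the higher side. In stomach 5 did, against 13.2%, and in tongue 4 did, against 5.17%. A lower level in whole tissue can come from fewer cells of a type or from less RNA per cell, which cannot be told apart here.

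**Figure D1:**
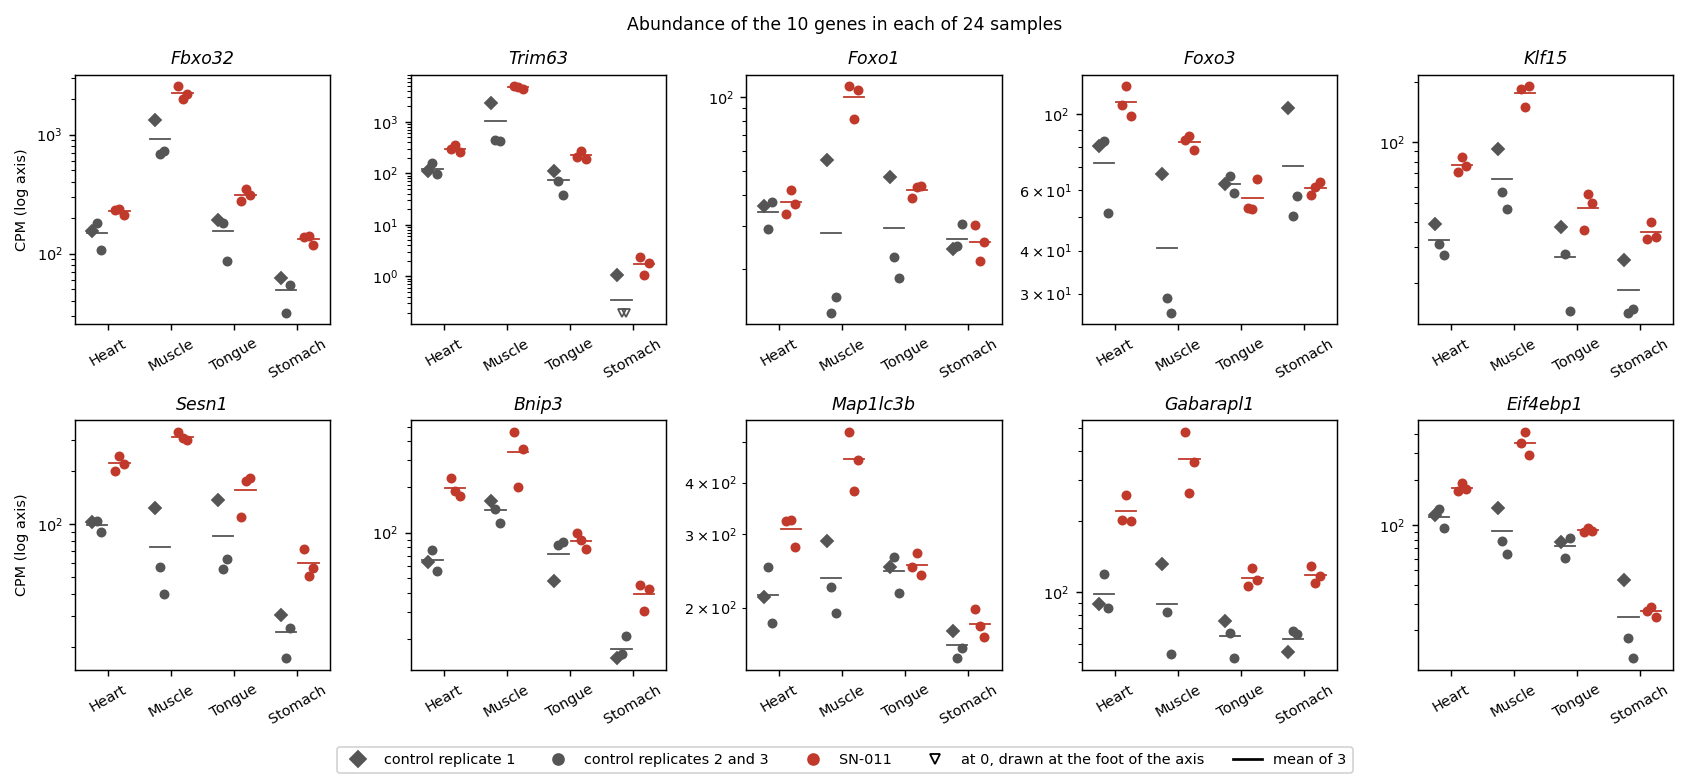
CPM of each of the 10 genes in all 24 samples, on a log axis that differs between panels, by tissue and treatment, with control replicate 1 as a diamond and group means as lines. Muscle holds the highest SN-011 level of every gene but Foxo3, and control replicate 1 of muscle lies above the other muscle controls for every gene.

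The abundances below are CPM scaled by TMM within each tissue, and fold changes come from an edgeR fit of that tissue. Fbxo32 (ENSMUSG00000022358, GRCm38 chromosome 15, 58175879 to 58214932, minus strand) encodes atrogin-1, the substrate receptor of a muscle ubiquitin ligase. In muscle it was at 1330, 692 and 728 CPM in control replicates 1, 2 and 3 and at 2575, 2003 and 2203 CPM in the SN-011 samples. The lowest SN-011 sample of muscle lay above the highest control, and the log2 fold change was 1.30 ± 0.28 (SE, n = 3 and 3). In heart Fbxo32 was at 155, 182 and 106 CPM in controls and 232, 236 and 212 CPM after SN-011, a log2 fold change of 0.62 ± 0.18. Tongue had 191, 182 and 87.0 CPM in controls and 278, 346 and 311 CPM after SN-011, a log2 fold change of 1.02 ± 0.29. In all 3 striated tissues the groups were apart, and in heart and tongue control replicate 3 was the lowest sample. Stomach, with 61.9, 31.9 and 54.0 CPM in controls and 137, 140 and 119 CPM after SN-011, had a log2 fold change of 1.42 ± 0.29, again without overlap.

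Trim63 (ENSMUSG00000028834, chromosome 4, 134315120 to 134329629, plus strand) encodes MuRF1, a ubiquitin ligase of the sarcomere. Its muscle controls were at 2307, 440 and 419 CPM and its muscle SN-011 samples at 4986, 4838 and 4269 CPM. Control replicate 1 thus stood far above the other muscle controls, and the log2 fold change of 2.15 ± 0.70 became 3.44 without it. In heart Trim63 was at 111, 158 and 98.4 CPM in controls and 292, 355 and 265 CPM after SN-011, a 2.48-fold difference (log2 fold change 1.31 ± 0.20). In tongue it was at 111, 71.7 and 38.3 CPM in controls and 204, 272 and 192 CPM after SN-011, a 3.03-fold difference (log2 fold change 1.60 ± 0.37). Neither tissue had an overlap between groups. In stomach the counts were 13, 0 and 0 in controls and 40, 16 and 30 after SN-011. With 2 control libraries at 0, the fitted stomach fold rests on the 13 counts of control replicate 1, and no fold is given. These stomach libraries also held striated muscle transcripts: 11 of 14 striated muscle markers had a mean of at least 1 CPM, with Myh4, Myh6 and Myh7 below it, and their summed level was 2107, 301 and 476 CPM in controls and 3221, 1529 and 1933 CPM after SN-011. The part of these transcripts in the stomach values of Trim63 and Fbxo32 was not tested.

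The promoter windows of Trim63, Klf15 and Bnip3, the 250 bases before the start site annotated in RefSeq, are shown because their windows were the ones among the genes to hold a searched motif. Of the 10 genes, 8 had an entry, with 9 windows in all, and Fbxo32 and Eif4ebp1 had none. The motifs, searched on both strands, were the FoxO core GTAAACA, the glucocorticoid receptor palindrome (GAACA and TGTTC parted by any 3 bases), the E-box CACGTG bound by clock and MYC factors, and the TATA box TATAAA. Capitals mark the matches.
Trim63 (GRCm38.p6 chr4:134314870-134315119, plus strand): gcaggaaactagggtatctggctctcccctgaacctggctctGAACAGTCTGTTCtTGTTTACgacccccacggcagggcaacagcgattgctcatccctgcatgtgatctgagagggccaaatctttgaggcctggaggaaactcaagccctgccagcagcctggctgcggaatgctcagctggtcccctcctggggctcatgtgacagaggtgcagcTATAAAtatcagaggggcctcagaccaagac
Klf15 (chr6:90462326-90462575, plus strand): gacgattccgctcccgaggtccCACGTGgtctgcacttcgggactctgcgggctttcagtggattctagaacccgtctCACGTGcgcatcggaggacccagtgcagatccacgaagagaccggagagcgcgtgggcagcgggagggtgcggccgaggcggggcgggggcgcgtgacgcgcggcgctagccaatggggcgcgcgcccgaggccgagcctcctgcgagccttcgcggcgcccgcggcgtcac
Bnip3 (chr7:138909507-138909756, minus strand): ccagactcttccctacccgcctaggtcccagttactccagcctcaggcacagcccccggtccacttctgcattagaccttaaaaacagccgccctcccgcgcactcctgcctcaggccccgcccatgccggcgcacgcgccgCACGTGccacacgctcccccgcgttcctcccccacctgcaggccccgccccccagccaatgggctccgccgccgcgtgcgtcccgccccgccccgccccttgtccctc
The Trim63 window held a FoxO core, read as TGTTTAC on the strand shown, whose first base lay 194 bases before the start site. The palindrome began 208 bases before the start site, directly ahead of the FoxO core and 1 base away from it, and a TATA box began 31 bases before it. The Klf15 window held E-boxes 228 and 172 bases before the start site, and the Bnip3 window held 1 at 108 bases. Of 32841 mouse promoter windows of this length, 3.17% held the FoxO core, 0.04% (13 windows) the palindrome, 6.02% the E-box and 12.4% the TATA box. The windows of Foxo1, Foxo3, Sesn1, Map1lc3b and Gabarapl1 held none of these letters, which says nothing about binding elsewhere. The GC content was 56.8% in the Trim63 window, 72.0% for Klf15 and 72.4% for Bnip3, against a median of 52.4% over all windows.

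Foxo1 and Foxo3, the transcription factors themselves, differed less evenly between the groups. Foxo1 (ENSMUSG00000044167, chromosome 3, 52268336 to 52353221, plus strand) was at 55.5, 13.3 and 15.3 CPM in muscle controls and at 111, 80.9 and 107 CPM after SN-011. Control replicate 1 was again the high one, and the log2 fold change of 1.83 ± 0.57 was 2.79 without it. In heart, Foxo1 controls of 35.97, 29.0 and 37.4 CPM overlapped with SN-011 samples of 33.5, 41.9 and 36.6 CPM, and the log2 fold change was 0.13 ± 0.14. In tongue the controls were at 47.0, 22.3 and 18.4 CPM and the SN-011 samples at 38.7, 43.0 and 43.4 CPM, with a log2 fold change of 0.51 ± 0.34 that was 1.04 without control replicate 1. Stomach values overlapped too, at 24.2, 24.8 and 30.5 CPM in controls and 30.04, 21.6 and 25.6 CPM after SN-011. So the Foxo1 groups were apart in muscle and overlapped in heart, tongue and stomach.

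Foxo3 (ENSMUSG00000048756, chromosome 10, 42181841 to 42276755, minus strand) was at 66.7, 29.1 and 26.4 CPM in muscle controls and 83.7, 86.1 and 78.5 CPM after SN-011, a log2 fold change of 1.02 ± 0.36, or 1.57 without control replicate 1. In heart it was at 80.4, 83.2 and 51.6 CPM in controls and 106, 121 and 98.6 CPM after SN-011, a log2 fold change of 0.60 ± 0.18. Both tissues had the groups apart. Tongue was the exception among striated tissues, with 62.6, 66.2 and 59.0 CPM in controls, 53.1, 52.7 and 64.5 CPM after SN-011 and a log2 fold change of -0.14 ± 0.13. In stomach the control replicates were at 104, 50.5 and 57.6 CPM and the SN-011 samples at 58.3, 61.1 and 63.5 CPM. The stomach log2 fold change was -0.21 ± 0.30 and turned to 0.15 without control replicate 1, the highest of the 6 samples.

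Klf15 (ENSMUSG00000030087, chromosome 6, 90462576 to 90475238, plus strand), a zinc finger factor that raises amino acid breakdown in muscle and is a target of the glucocorticoid receptor, was higher after SN-011 without overlap in 3 tissues. Heart had 39.1, 31.2 and 27.6 CPM in controls and 70.9, 84.9 and 76.3 CPM after SN-011, a 2.37-fold difference (log2 fold change 1.25 ± 0.15). Muscle had 92.5, 56.5 and 46.8 CPM in controls and 185, 150 and 191 CPM after SN-011, a 2.68-fold difference (log2 fold change 1.42 ± 0.27). In stomach the values were 26.0, 14.2 and 14.9 CPM against 33.1, 40.2 and 33.8 CPM, a log2 fold change of 0.96 ± 0.29. In tongue control replicate 1, at 38.0 CPM, lay above the lowest SN-011 sample. The other tongue controls were at 27.8 and 14.6 CPM, the SN-011 samples at 36.7, 55.0 and 49.6 CPM, and the log2 fold change was 0.81 ± 0.34, or 1.15 without control replicate 1.

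Sesn1 and Eif4ebp1 encode brakes on protein synthesis, which the kinase complex mTORC1 drives. Sestrin 1 restrains mTORC1 when leucine is scarce, and 4E-BP1 holds the cap-binding protein eIF4E until mTORC1 phosphorylates 4E-BP1. Sesn1 (ENSMUSG00000038332, chromosome 10, 41809935 to 41908424, plus strand) was at 103, 104 and 90.1 CPM in heart controls and 200, 243 and 219 CPM after SN-011, a 2.23-fold difference (log2 fold change 1.16 ± 0.12). In muscle it was at 124, 56.8 and 39.9 CPM in controls and 333, 306 and 299 CPM after SN-011, a 4.26-fold difference (log2 fold change 2.09 ± 0.41, or 2.69 without control replicate 1). The SN-011 samples of muscle lay closer together than its controls, of which replicate 1 was the highest. In stomach the values were 30.4, 17.3 and 25.6 CPM against 72.4, 50.7 and 56.5 CPM, with a log2 fold change of 1.29 ± 0.28 and no overlap. Tongue values overlapped, with controls at 137, 55.4 and 63.0 CPM and SN-011 samples at 109, 175 and 182 CPM, and the log2 fold change of 0.86 ± 0.37 was 1.39 without control replicate 1.

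Eif4ebp1 (ENSMUSG00000031490, chromosome 8, 27260329 to 27276674, plus strand) was at 131, 78.7 and 63.9 CPM in muscle controls and 352, 418 and 291 CPM after SN-011, a 3.88-fold difference (log2 fold change 1.96 ± 0.30). In heart it was at 117, 128 and 95.3 CPM against 168, 192 and 173 CPM, a log2 fold change of 0.65 ± 0.14. The groups were apart in both. In tongue they were apart by less, at 76.9, 60.1 and 82.6 CPM against 89.6, 96.5 and 91.4 CPM, a log2 fold change of 0.34 ± 0.15. In stomach, controls of 43.2, 17.7 and 13.1 CPM spread around SN-011 samples of 27.0, 28.8 and 24.4 CPM, and the log2 fold change of 0.12 ± 0.42 was 0.77 without control replicate 1.

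Of the autophagy genes, Bnip3 encodes a receptor that ties mitochondria to the growing autophagosome. Bnip3 (ENSMUSG00000078566, chromosome 7, 138890836 to 138909519, minus strand) was at 64.5, 76.3 and 56.0 CPM in heart controls and 230, 187 and 173 CPM after SN-011. This 3-fold difference (log2 fold change 1.58 ± 0.16) was the largest of the 10 genes in heart. Counted from the highest rise downward, it ranked 76 among the 16151 genes tested there. In muscle Bnip3 was at 162, 143 and 116 CPM in controls and 464, 200.1 and 355 CPM after SN-011, a log2 fold change of 1.27 ± 0.31, with the thin library, replicate 2, the lowest of the SN-011 samples. In stomach it was at 14.8, 15.8 and 20.8 CPM against 45.1, 30.6 and 42.5 CPM, a log2 fold change of 1.20 ± 0.26. All 3 of these tissues had the groups apart. Tongue values of 48.2, 83.4 and 86.8 CPM in controls and 98.8, 89.3 and 77.6 CPM after SN-011 overlapped, with a log2 fold change of 0.28 ± 0.23. Here control replicate 1 was the lowest control, unlike for most of the other genes, and without it the value was 0.06.

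Map1lc3b and Gabarapl1 encode ubiquitin-like proteins that are attached to the autophagosome membrane. Gabarapl1 (ENSMUSG00000030161, chromosome 6, 129533160 to 129542346, plus strand) was higher after SN-011 without overlap in all 4 tissues. Its values were 88.7, 120 and 85.5 CPM against 202, 260 and 200 CPM in heart (log2 fold change 1.17 ± 0.17). In muscle they were 131, 82.4 and 54.1 CPM against 481, 263 and 358 CPM (log2 fold change 2.04 ± 0.38). Tongue gave 75.0, 66.7 and 52.1 CPM against 106, 126 and 113 CPM (log2 fold change 0.83 ± 0.16). In stomach, where the controls were the closest together, they were 55.2, 68.0 and 66.3 CPM against 129, 109 and 116 CPM (log2 fold change 0.90 ± 0.23). Map1lc3b (ENSMUSG00000031812, chromosome 8, 121590361 to 121598760, plus strand) differed by less. It was at 290, 224 and 194 CPM in muscle controls and 530, 381 and 453 CPM after SN-011, a log2 fold change of 0.95 ± 0.20, and at 212, 250 and 183 CPM against 324, 324 and 279 CPM in heart, a log2 fold change of 0.52 ± 0.15. In tongue (251, 265 and 217 CPM against 250, 271 and 240 CPM) and stomach (176, 151 and 160 CPM against 199, 180 and 170 CPM) the groups overlapped, with log2 fold changes of 0.05 ± 0.13 and 0.17 ± 0.24.

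**Figure D2:**
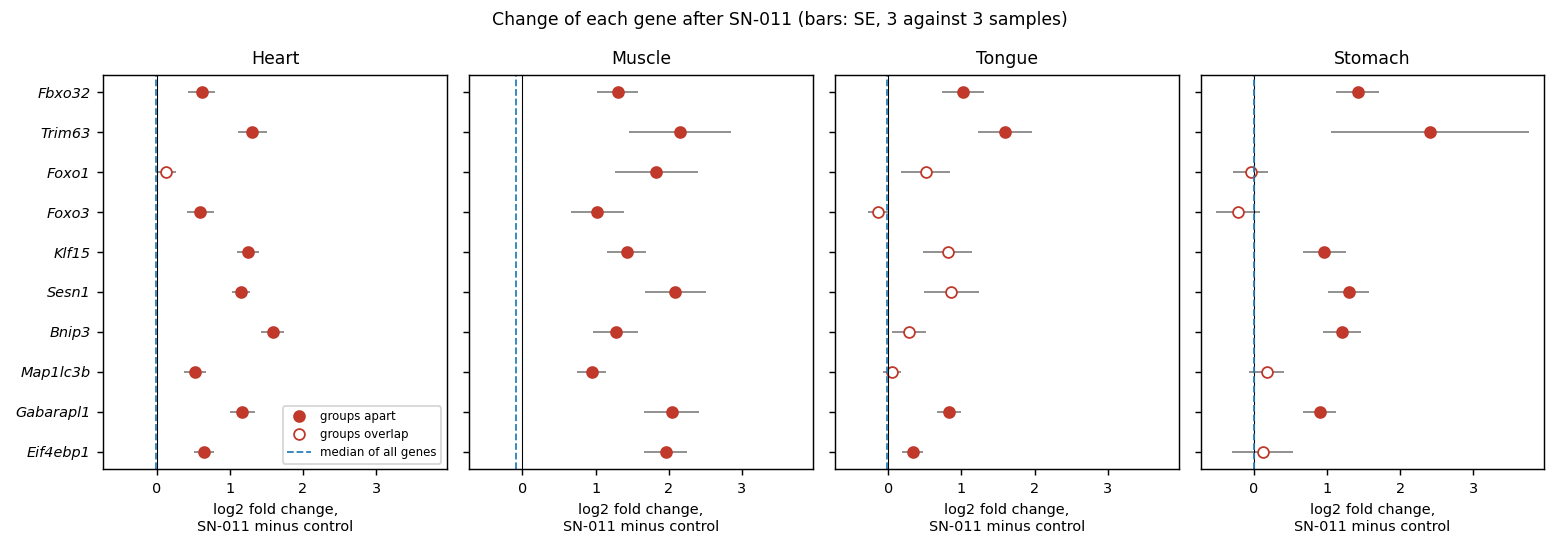
Log2 fold change of each gene, SN-011 minus control, with its SE, in 4 tissues; filled points mark genes whose groups did not overlap, and the dashed line is the median of all genes tested. In muscle all 10 points are filled and lie between 0.95 and 2.15, in tongue 4 are filled, and Foxo3 lies below 0 in tongue and stomach.

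The contrasts of SN-011 with control chose the genes, so the counts that follow are a description and test nothing about them. The genes that passed in heart were Trim63, Klf15, Sesn1, Bnip3 and Gabarapl1. With 1 sample left out in turn, between 0 and 8 of the 10 genes did (8 without control replicate 2, where 4.74% of all genes passed). Without SN-011 replicate 1, 2 or 3, the heart count was 0, 0 and 1, and that of all genes fell from 137 to 5, 1 and 9. Without control replicate 3 it was 3, with 32 of all genes. The median log2 fold change of the 10 genes in heart was 0.96, 0.82, 0.90 and 0.80 in these 4 fits. In muscle 7 of the genes passed without control replicate 1 (68 of all genes, 0.467%) and also 7 without SN-011 replicate 2 (1103 genes, 7.4%). In tongue 6 passed without control replicate 1 (2135 genes, 12.5%). DESeq2 called 9 of the genes in heart, 8 in muscle, 3 in tongue and 4 in stomach, and 8.43%, 6.2%, 2.52% and 14% of all genes in the same order. The exact test of edgeR, a negative binomial test, called 7, 8, 2 and 5 of the genes and 5.68%, 3.37%, 1.53% and 10.8% of all genes. Over 14 other settings, 9 genes in heart, 10 in muscle, 8 in tongue and 7 in stomach kept a positive log2 fold change in each setting that gave a value, and Foxo3 in tongue was negative in each.

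Other transcripts moved with these values, and their part in them was not tested. In muscle the summed level of 7 adipocyte markers, all with a mean of at least 1 CPM, was 1813, 286 and 535 CPM in controls and 2078, 833 and 1779 CPM after SN-011, so that control replicate 1 was the highest control here too. In heart and stomach the adipocyte sums were apart between the groups. They were 683 to 836 CPM in heart controls and 1087 to 1219 CPM after SN-011, where 6 of 7 markers had a mean of at least 1 CPM (Lep did not) and 1 of 5 tested had a positive log2 fold change. In stomach, again with Lep below 1 CPM, they were 61.3 to 201.5 CPM in controls and 203 to 281 CPM after SN-011. Of the 6 adipocyte markers tested there, 4 had a positive log2 fold change and 1 was higher without overlap. The 14 striated muscle markers summed to 128500 to 144800 CPM in muscle controls and 154600 to 177000 CPM after SN-011, and to 30930 to 43370 and 44690 to 50320 CPM in heart, apart in both tissues. In heart, 9 of 10 stomach epithelium markers had a mean of at least 1 CPM (Tff1 did not), and they summed to 27.4, 3186 and 323 CPM in the 3 controls. In tongue, 7 of 7 squamous epithelium markers had such a mean and summed to 13380, 42790 and 61170 CPM in controls and 16900 to 25590 CPM after SN-011, while 11 of 14 striated markers summed to 33240, 29020 and 21220 CPM and to 29900 to 33750 CPM. In stomach, 7 of 7 smooth muscle markers, of which Des is also on the striated list, summed to 10100, 1781 and 3357 CPM in controls and 14080, 7142 and 8462 CPM after SN-011, and 6 of 7 squamous markers to 112 to 241 CPM and 454 to 1483 CPM. The smooth muscle and striated sums of stomach overlapped between the groups and the squamous sums did not. The summed leukocyte markers overlapped in all 4 tissues, at 893 to 1448 CPM in heart controls and 922 to 1159 CPM after SN-011, for example. Of single leukocyte markers, 1 of 9 tested in heart was higher after SN-011 without overlap and 2 of 8 in muscle were lower, and their median log2 fold change in heart was -0.43.

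The response was then set between striated tissue and stomach in 1 fit of all 24 samples, as the mean effect of SN-011 in heart, muscle and tongue minus its effect in stomach. Of the 10 genes, 7 had a positive difference, with a median of 0.28 on the log2 scale against -0.14 over all genes tested. With library size alone as the scaling, the median of the 10 genes was -0.04 and that of all genes -0.41. The differences were 0.88 ± 0.45 for Foxo1, 0.88 ± 0.36 for Eif4ebp1, 0.72 ± 0.33 for Foxo3, 0.46 ± 0.31 for Gabarapl1, 0.35 ± 0.22 for Map1lc3b, 0.22 ± 0.36 for Klf15 and 0.09 ± 0.40 for Sesn1. Bnip3 (-0.14 ± 0.33), Fbxo32 (-0.43 ± 0.35) and Trim63 (-0.82 ± 0.98) had a negative one. The size for Trim63 rests on stomach control replicate 1, since the other 2 stomach controls were at 0 counts. Without that replicate it was -5.94, a value set by the prior count added by the fit. Without stomach control replicate 3 it was -0.12. The difference of Eif4ebp1 was 0.17 without stomach control replicate 1 and 1.20 without stomach control replicate 3. In the quasi-likelihood test 0 of the 10 passed an adjusted p under 0.05, as 7.99% of all genes did. This contrast also chose the genes, so nothing was read from it.

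Levels among the controls of heart, muscle and tongue did not enter the choice of genes and were tested with edgeR's quasi-likelihood test in a fit of the 12 control samples. This fit treated the samples as unpaired. Per exon length, as CPM divided by the exon length in kilobases (FPKM), Trim63 stood at 618 ± 624 FPKM (SD, n = 3) in muscle, 38.7 ± 9.5 in heart, 21.8 ± 10.7 in tongue and 0.10 ± 0.18 in stomach. The muscle SD exceeded the mean because replicate 1 was at 1339 FPKM and the others at 252 and 263 FPKM. Fbxo32 stood at 220.5 ± 81.5 FPKM in muscle, 18.9 ± 4.7 in heart, 18.5 ± 6.9 in tongue and 5.77 ± 1.91 in stomach. Both ligases thus had their highest mean in muscle, a wide step above heart and tongue, and their lowest in stomach. For Fbxo32 heart and tongue lay close, with a log2 difference, heart minus tongue, of 0.04 ± 0.38 (SE). Of the 10 genes, 6 were lower in heart than in muscle, where 38.9% of all genes differed and 19% were lower in heart. In tongue 7 were lower than in muscle, where 43.3% of all genes differed and 21.3% were lower in tongue.

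In heart against muscle, Trim63 was 16-fold lower (log2 difference -4.00 ± 0.95, edgeR adjusted p = 0.00592) and Fbxo32 11.6-fold lower (log2 difference -3.54 ± 0.42, edgeR adjusted p = 6.92e-05). In tongue against muscle they were 28.4-fold (log2 difference -4.83 ± 0.99, edgeR adjusted p = 0.00207) and 11.9-fold lower (log2 difference -3.58 ± 0.42, edgeR adjusted p = 5.13e-05). The sizes for Trim63 depend on control replicate 1 of muscle, without which the log2 difference from muscle was -2.74 ± 0.77 in heart (edgeR adjusted p = 0.021) and -3.56 ± 0.79 in tongue (edgeR adjusted p = 0.0054). None of the 3 control samples of heart or tongue reached any of muscle for either gene. Bnip3 was at 104 ± 15.2 FPKM in muscle, 27.0 ± 8.0 in tongue and 26.0 ± 3.7 in heart, and its log2 difference from muscle was -2.01 ± 0.25 in heart (edgeR adjusted p = 8.9e-05) and -1.95 ± 0.25 in tongue (edgeR adjusted p = 8.1e-05). Klf15 was at 39.2 ± 13.6 FPKM in muscle, 10.5 ± 1.9 in heart and 8.06 ± 3.51 in tongue, with log2 differences of -1.90 ± 0.38 (edgeR adjusted p = 0.002) and -2.28 ± 0.38 (edgeR adjusted p = 0.000552). Map1lc3b, at 52.9 ± 9.8 FPKM in muscle, 27.3 ± 2.8 in tongue and 25.6 ± 3.7 in heart, was about 1 log2 unit lower in both, at -1.04 ± 0.20 in heart (edgeR adjusted p = 0.00189) and -0.95 ± 0.20 in tongue (edgeR adjusted p = 0.00272).

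Gabarapl1 was at 74.2 ± 30.9 FPKM in muscle, 43.6 ± 7.9 in heart and 27.0 ± 4.8 in tongue. Its difference from muscle passed narrowly in heart (log2 difference -0.77 ± 0.28, edgeR adjusted p = 0.0439), with overlapping samples, and by more in tongue (log2 difference -1.46 ± 0.28, edgeR adjusted p = 0.00135). The call in heart was lost without control replicate 1 of muscle (log2 difference -0.40, edgeR adjusted p = 0.238), and also without muscle replicate 2, heart replicate 1 or 3, or replicate 2 of tongue or stomach (edgeR adjusted p = 0.0588 to 0.143). Eif4ebp1 was at 69.6 ± 25.3 FPKM in muscle, 46.3 ± 6.2 in heart and 28.0 ± 4.4 in tongue, and it was lower than muscle in tongue (log2 difference -1.31 ± 0.40, edgeR adjusted p = 0.0202), whereas the difference in heart did not pass (-0.59 ± 0.40, edgeR adjusted p = 0.268). The tongue call was lost without control replicate 1 of muscle (-0.98, edgeR adjusted p = 0.0936) or replicate 2 of tongue (-1.19, edgeR adjusted p = 0.0785). Sesn1, Foxo1 and Foxo3 passed in neither comparison, although without control replicate 1 of tongue the tongue difference of Sesn1 (-1.30, edgeR adjusted p = 0.0257) and Foxo1 (-1.44, edgeR adjusted p = 0.042) did. They were at 30.9 ± 17.97, 5.40 ± 4.47 and 9.01 ± 4.78 FPKM in muscle, 22.3 ± 1.5, 3.54 ± 0.51 and 8.49 ± 1.98 FPKM in heart, and 17.9 ± 9.4, 2.83 ± 1.49 and 6.94 ± 0.41 FPKM in tongue, within the spread of the muscle samples. Between heart and tongue the quasi-likelihood test called 0 of the 10 genes, where it called 32.3% of all genes in either direction. DESeq2 called 0 too (36.7% of all genes), the exact test of edgeR called 2 (39% of all genes), and 1 gene had an unadjusted p under 0.05, as 42.5% of all genes did. The log2 difference, heart minus tongue, nearest to the threshold there was that of Gabarapl1 (0.69 ± 0.28, edgeR adjusted p = 0.0739), whose samples did not overlap.

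The size of the step below muscle depends on the scaling. With library size alone, the median of all genes moved by 0.86 in heart against muscle and by 0.85 in tongue against muscle, and the log2 differences of heart from muscle became 0.09 for Gabarapl1, 0.27 for Eif4ebp1 and 0.24 for Foxo1, reversing their direction. Relative to the median of all genes under that scaling, Gabarapl1 was at -0.86, Eif4ebp1 at -0.67, Trim63 at -4.10, Fbxo32 at -3.63 and Bnip3 at -2.09 in heart against muscle. Without control replicate 1 of every tissue, 4 of the 10 genes passed between heart and tongue, where 30.3% of all genes did.

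**Figure D3:**
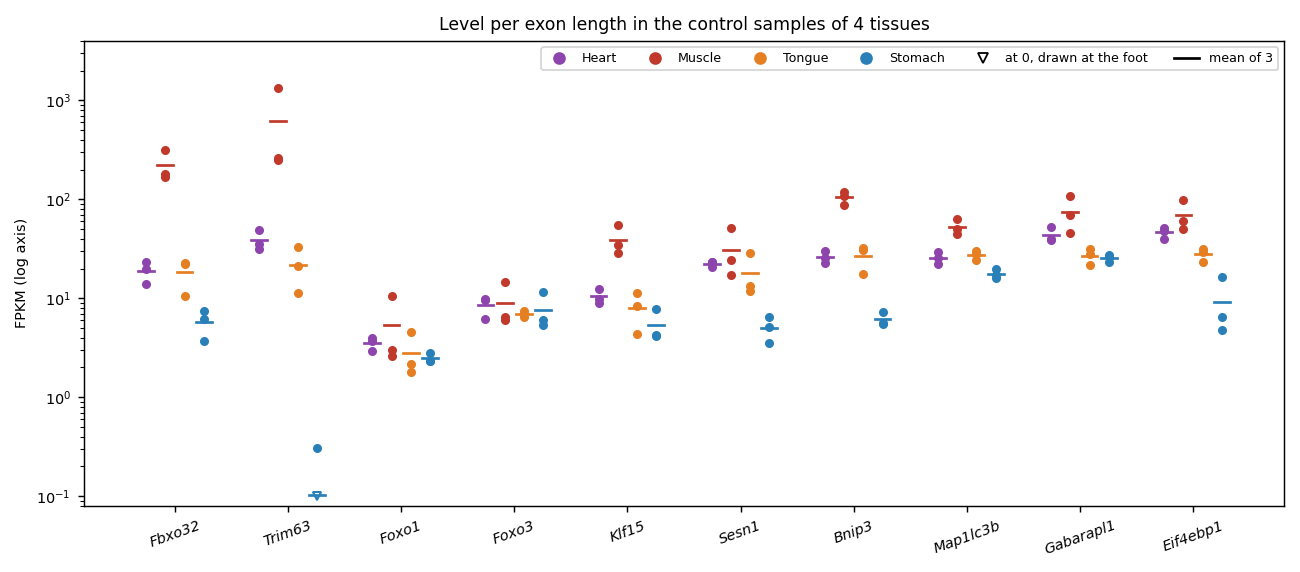
FPKM of each gene in the control samples of 4 tissues on a log axis, with group means as lines. Muscle has the highest mean of all 10 genes, from 5.40 FPKM for Foxo1 to 618 FPKM for Trim63, and Trim63 is near 0 in stomach. For Foxo1, Foxo3 and Sesn1 this rests on control replicate 1 of muscle. Without it their log2 differences, heart minus muscle, were 0.33, 0.44 and 0.11.

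Across genes, the order of mean levels per length also differed by tissue. In muscle it ran from Trim63 (618 FPKM) and Fbxo32 (220.5) through Bnip3 (104), Gabarapl1 (74.2), Eif4ebp1 (69.6), Map1lc3b (52.9), Klf15 (39.2) and Sesn1 (30.9) to Foxo3 (9.01) and Foxo1 (5.40). In stomach Gabarapl1 (25.5 ± 2.2 FPKM) and Map1lc3b (17.6 ± 1.8) were highest, and Eif4ebp1 (9.26 ± 6.35), Foxo3 (7.67 ± 3.38), Bnip3 (6.15 ± 1.02), Fbxo32 (5.77 ± 1.91), Klf15 (5.39 ± 2.10) and Sesn1 (5.02 ± 1.46) lay within each other's spread. Foxo1 (2.49 ± 0.28) and Trim63 were the lowest there. The stomach levels enter no test.

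The rest of the pathway was read from 6 lists of 91 genes, none of them among the 10. The lists were chosen with earlier results of these data known, so calls on them are not independent of these data. In heart, 2 of 88 tested genes of the lists passed an adjusted p under 0.05, as 0.848% of all genes did. Prodh, a proline dehydrogenase listed with Klf15, rose from 23.5, 21.1 and 17.6 CPM in controls to 43.2, 60.8 and 52.7 CPM after SN-011 (log2 fold change 1.33 ± 0.16, edgeR adjusted p = 0.0212). Nr3c1, the glucocorticoid receptor, fell from 61.4, 67.3 and 66.5 CPM to 43.5, 41.8 and 38.7 CPM (log2 fold change -0.66 ± 0.10, edgeR adjusted p = 0.0308). Both had the groups apart. In heart 36 list genes had an unadjusted p under 0.05 on the higher side and 4 on the lower, as 10.8% and 11.6% of all genes did. DESeq2 called 21 of the list genes in heart and the exact test 15, where they called 8.43% and 5.68% of all genes. The quasi-likelihood test called 0 without any 1 of the 3 SN-011 samples, and Nr3c1 also missed the threshold without control replicate 3 (edgeR adjusted p = 0.0849).

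In muscle, tongue and stomach the quasi-likelihood test called 0 of 90, 90 and 89 list genes. There 31, 15 and 19 of them had an unadjusted p under 0.05 on the higher side as 8.96%, 5.17% and 13.2% of all genes did, and 2, 4 and 7 on the lower, as 5.8%, 7.33% and 11.4% of all genes did. DESeq2 called 20, 6 and 15 list genes (6.2%, 2.52% and 14% of all genes), and the exact test 17, 2 and 12 (3.37%, 1.53% and 10.8% of all genes). The 3 largest differences without overlap in each of these tissues did not pass the threshold and are given by their values. In muscle Cebpd, a transcription factor of the acute response, was at 236, 95.3 and 30.9 CPM in controls and 644, 663 and 553 CPM after SN-011 (log2 fold change 2.36 ± 0.67, edgeR adjusted p = 0.222). Ddit4, an inhibitor of mTORC1, was at 302, 58.4 and 9.73 CPM against 619, 445 and 642 CPM (log2 fold change 2.21 ± 1.06, edgeR adjusted p = 0.4). Cebpb, a relative of Cebpd, was at 115, 73.2 and 36.5 CPM against 228, 420 and 230 CPM (log2 fold change 1.97 ± 0.46, edgeR adjusted p = 0.174). In each of these, control replicate 1 was the highest muscle control. Without it the log2 fold changes of Cebpd and Ddit4 were 3.29 and 4.06 and still missed the threshold (edgeR adjusted p = 0.0988 and 0.147).

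In tongue Fkbp5, a cochaperone of the glucocorticoid receptor and a standard target of it, was at 88.0, 31.0 and 25.8 CPM in controls and 115, 144 and 152 CPM after SN-011 (log2 fold change 1.51 ± 0.45, edgeR adjusted p = 0.308). Tsc22d3, the glucocorticoid-induced leucine zipper, was at 321, 135 and 76.9 CPM against 324, 394 and 527 CPM (log2 fold change 1.22 ± 0.49, edgeR adjusted p = 0.384), so that control replicate 1 came close to the lowest SN-011 sample. Zbtb16, a zinc finger factor, was at 17.4, 9.52 and 8.12 CPM in tongue controls and 24.7, 33.0 and 22.7 CPM after SN-011 (log2 fold change 1.20 ± 0.31, edgeR adjusted p = 0.281). Without control replicate 1 of tongue, Fkbp5 (2.27, edgeR adjusted p = 0.000792), Tsc22d3 (1.97, edgeR adjusted p = 0.00639) and Zbtb16 (1.60, edgeR adjusted p = 0.00489) passed. The last of these genes also led in stomach, at 1.05, 0.44 and 0.96 CPM against 9.13, 7.65 and 8.60 CPM (log2 fold change 3.37 ± 0.48, edgeR adjusted p = 0.0618). Pdk4, which holds back the entry of pyruvate into the citric acid cycle, was at 42.9, 18.2 and 17.7 CPM in stomach controls and 123, 142 and 131 CPM after SN-011 (log2 fold change 2.33 ± 0.38, edgeR adjusted p = 0.0618). Pck1, an enzyme of gluconeogenesis, was at 2.82, 0.25 and 0.96 CPM against 16.3, 5.61 and 9.34 CPM there (log2 fold change 2.98 ± 0.80, edgeR adjusted p = 0.092). Without control replicate 1 of stomach, Zbtb16 (3.54, edgeR adjusted p = 0.0486) and Pdk4 (2.85, edgeR adjusted p = 0.0259) passed, and Pck1 (4.03, edgeR adjusted p = 0.0581) did not.

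By list, the 10 genes linked to Klf15 and glucocorticoids had a median log2 fold change of 1.05 in heart, 1.28 in muscle, 0.91 in tongue and 1.26 in stomach, and 7, 6, 4 and 5 of them had SN-011 above control without overlap, as 14.1%, 14.7%, 9.4% and 17.8% of all genes did. The other FoxO targets had medians of 0.43, 0.61, 0.18 and 0.41 in the same order of tissues, and the other FoxO-linked atrophy genes 0.31, 0.71, 0.04 and -0.23. The 23 other autophagy genes had medians of 0.22, 0.20, 0.03 and 0.06, and 10, 9, 0 and 4 of them were apart on the higher side, against the same shares of all genes. The list of insulin and Akt input had medians of 0.21, 0.09, 0.12 and 0.01. That of mTORC1 and translation control had 0.11, 0.00, 0.09 and 0.10. Over all genes tested the medians were -0.01, -0.08, -0.01 and 0.00. These medians describe the lists and were not tested.

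**Figure D4:**
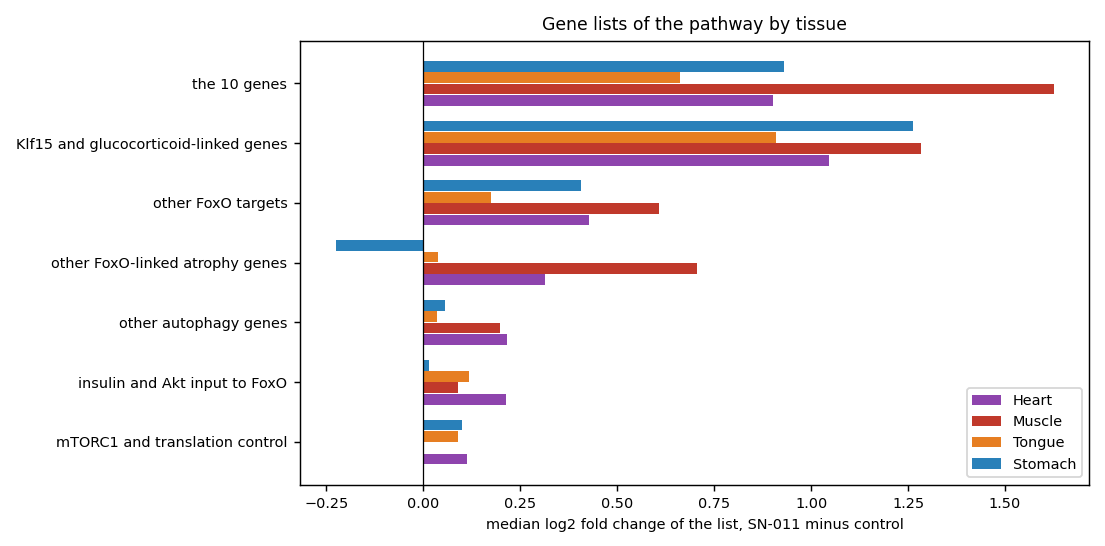
Median log2 fold change, SN-011 minus control, of the 10 genes and of 6 pathway lists in 4 tissues. Within each tissue the 10 genes and the list linked to Klf15 and glucocorticoids have the longest bars, from 0.66 in tongue to 1.63 in muscle, and the bar of the other FoxO-linked atrophy genes points below 0 in stomach.

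Within the 18 samples of heart, muscle and tongue, each of the 10 genes followed their mean, taken as log2 CPM centred in each tissue, with a Pearson r of 0.983 for Gabarapl1, 0.969 for Sesn1, 0.968 for Trim63, 0.943 for Klf15, 0.928 for Fbxo32, 0.923 for Eif4ebp1, 0.92 for Map1lc3b, 0.884 for Foxo1, 0.861 for Foxo3 and 0.762 for Bnip3. The centred mean of the 10 genes was -1.28 and -1.09 in muscle control replicates 3 and 2 but -0.08 in replicate 1, and 0.47 to 1.09 in the muscle SN-011 samples. In tongue it was -0.04 in control replicate 1, -0.32 and -0.66 in the others and 0.22 to 0.46 after SN-011, and in heart -0.67 to -0.29 and 0.35 to 0.58. Of 9864 other genes with a mean of at least 10 CPM, the 5 with the highest r to this mean were Pnpla2 (0.973), a triglyceride lipase, Spsb1 (0.962), a substrate receptor of a ubiquitin ligase, Glul (0.962), glutamine synthetase, Retreg1 (0.959), a receptor for autophagy of the endoplasmic reticulum, and Mknk2 (0.958), a kinase of eIF4E. Each of the 10 genes is part of the mean it was compared with. Centring by tissue also keeps the SN-011 difference by which the 10 were chosen, so a high r was built in for them. The points share libraries and the SN-011 grouping, and muscle spans the widest range, so all these r values are a description. The log2 fold changes of the 5 other genes after SN-011 were 0.80 to 1.12 in heart, 1.19 to 1.88 in muscle and 0.48 to 0.92 in tongue. In stomach, which did not enter the ranking, they were -0.06 for Pnpla2, 0.63 for Spsb1, 0.28 for Glul, -0.78 for Retreg1 and 0.32 for Mknk2.

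Of the 10 genes, 5 overlap an exon of another gene on the opposite strand: Fbxo32 and Gm15943, Foxo1 and Gm20402, Bnip3 and Gm45507, Map1lc3b and Zcchc14, and Gabarapl1 and 1700101I11Rik. The sources used here do not say whether strand was used in counting, so reads of each pair may not be told apart.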

How the data were processed

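RNA was sequenced from 24 samples of Trex1-KO mice. As the study's methods describe, libraries were made from poly(A) RNA, reads were trimmed with Trimmomatic and mapped with hisat2, and uniquely mapped pairs were counted with featureCounts, while the processing notes of the submitters name HISAT2, HTSeq and mm10. The authors deposited raw counts per Ensembl gene, not normalized. Of 54532 genes, 54495 matched GENCODE M21 (GRCm38), which gave symbols, positions and exon lengths.

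Total counts were 14253416 to 18443329. The 6 samples of a tissue formed 1 fit. Genes were kept by filterByExpr at a minimum count of 10 and a minimum total of 15, scaled by TMM and tested by quasi-likelihood in edgeR 4.0.16 under R 4.3.3, and fold changes used a prior count of 0.125. Benjamini-Hochberg adjustment ran over all genes tested (threshold 0.05), 16151 in heart, 17031 in stomach, 14198 in muscle and 16587 in tongue. Striated minus stomach used all 24 samples (19731 genes), and control tissues the 12 control samples (18301 genes). FPKM values divide CPM of the 12 control samples by the summed exon length. DESeq2 1.42.0, edgeR's exact test, other scalings, other filters, a joint fit, each sample left out in turn and the replicate number as a block were the alternatives, and leaving out control replicate 1 of every tissue was added after seeing the data. The fits were tested on simulated data. Tables and figures used Python 3.11.15, pandas 2.3.3, numpy 2.4.6 and matplotlib 3.10.9.

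The 10 genes, the pathway lists and the marker lists were chosen with earlier results of these data known. The 10 genes were named in every sample. From the pathway lists, genes with an adjusted p under 0.05 were named, up to 5 per tissue, or else the 3 with the largest log2 fold change among those without overlap and with a mean of at least 1 CPM. The 5 genes most like the 10 in pattern were ranked by Pearson r among genes with a mean of at least 10 CPM (log2 CPM with a prior count of 2).

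The replicate numbers come from the titles in the labels, which do not say that they mark shared mice. As deviations from group means across genes, same-numbered controls correlated at 0.547, 0.568 and 0.237 between heart and muscle and at 0.439, 0.457 and 0.179 between muscle and tongue, and were taken as paired, by a rule that asked for a correlation over 0.1 in all 3 pairs of a comparison. The fit of the control samples behind the printed p-values had no term for this pairing. It entered only as the replicate block among the alternatives. Between heart and tongue they correlated at 0.511, 0.458 and 0.095, which missed this limit narrowly in 1 pair, so the numbers were not taken to pair the samples on that comparison's own values. Whether the 3 tissues came from the same mice was not settled by this rule. Control and SN-011 samples of 1 tissue correlated at -0.328 to 0.244 and were not paired. The result of 1 gene of the pathway lists is not reported here.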

Additional observations from a re-analysis of the deposited data

Results flagged for a closer look

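Among the 91 genes of the pathway lists, 11 differed in their SN-011 effect between the striated tissues and stomach, by a test of the difference itself in the joint fit of 24 samples (edgeR's quasi-likelihood test, adjusted over 19731 genes, of which 7.99% passed). The lists were chosen with earlier results of these data known, so this count is no independent test of the pathway. Values are given for 10 of them, whose differences were not checked under other settings or with a sample left out. On the log2 scale, striated minus stomach, the difference was 1.34 ± 0.40 for Irs2, an adaptor of the insulin receptor (edgeR adjusted p = 0.0415), whose log2 fold change was 1.70 in heart, 1.49 in muscle, 0.80 in tongue and 0.01 in stomach. Usp14 (0.94 ± 0.17, edgeR adjusted p = 0.00343) and Psmd11 (0.73 ± 0.20, edgeR adjusted p = 0.0308), both of the proteasome, had -0.88 and -0.44 in stomach. The lysosomal membrane protein gene Lamp2 (0.65 ± 0.17, edgeR adjusted p = 0.0278), the mitochondrial superoxide dismutase Sod2 (0.75 ± 0.19, edgeR adjusted p = 0.021), the branched-chain aminotransferase Bcat2 (0.85 ± 0.22, edgeR adjusted p = 0.0248) and the BH3-only gene Bcl2l11 (0.81 ± 0.23, edgeR adjusted p = 0.0376) had -0.73, -0.62, -0.30 and -0.31 in stomach. The striated tissues did not all have positive values. Lamp2 was at -0.25 in heart, 0.20 in muscle and -0.21 in tongue. Usp14 (-0.24), Psmd11 (-0.17) and Sod2 (-0.04) were negative in tongue and positive in heart and muscle. Bcat2 and Bcl2l11 were positive in heart, muscle and tongue.

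The opposite direction was found for Stub1, a cochaperone with ubiquitin ligase activity (-1.28 ± 0.38, edgeR adjusted p = 0.0418), the repressor Bcl6 (-1.50 ± 0.29, edgeR adjusted p = 0.00542) and Cited2, a transcriptional regulator (-1.11 ± 0.30, edgeR adjusted p = 0.0266), which had 1.27, 1.47 and 0.59 in stomach. In heart, muscle and tongue Stub1 had 0.16, -0.245 and 0.10, Bcl6 0.09, -0.64 and 0.51, and Cited2 0.08, -0.85 and -0.78. In stomach Stub1 was at 6.29, 25.7 and 31.3 CPM in controls and 52.4, 42.6 and 58.5 CPM after SN-011. Control replicate 1 was thus the lowest of these Stub1 samples. Summed squamous epithelium and adipocyte markers were also higher without overlap in the stomach SN-011 samples than in the controls, while smooth and striated muscle sums overlapped, as given above. The adipocyte sums were apart narrowly, at up to 201.5 CPM in controls and at least 203 CPM after SN-011. The part of these marker sums in the differences was not tested.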

How the results depend on the processing

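The count of the 10 genes past the threshold after SN-011 moved with the method more than their fold changes did. The contrasts behind this count chose the genes, so it is a description. It was 5 in heart, 0 in stomach, 0 in muscle and 0 in tongue. Without a filter on low counts it was 9, 3 and 4 in heart, stomach and muscle (6.23%, 4.98% and 0.424% of all genes). When every sample needed at least 10 counts it was 1 in muscle (0.733%). DESeq2 gave 9, 4, 8 and 3 (8.43%, 14%, 6.2% and 2.52%), the exact test called 5, 8 and 2 in stomach, muscle and tongue (10.8%, 3.37% and 1.53%), and the joint fit of 24 samples gave 0, 4 and 8 in heart, stomach and muscle (0.00507%, 13.9% and 2.4%), so the share of all genes called moved too. With 1 sample left out it was 0 to 8 in heart, 0 to 7 in muscle and 0 to 6 in tongue. The median log2 fold change of the 10 genes in tongue was 0.47 to 0.99 with 1 sample left out, the highest without control replicate 1.

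The count of pathway genes past the threshold was 2, 0, 0 and 0 in heart, stomach, muscle and tongue. It was 23, 10 and 2 in the first 3 without a filter, 6, 1 and 1 with at least 10 counts in every sample, 21, 15, 20 and 6 by DESeq2, 15, 12, 17 and 2 by the exact test, and 0, 16 and 7 in the joint fit. With 1 sample left out it was 0 to 11 in heart, 0 to 3 in stomach, 0 to 16 in muscle (16 without SN-011 replicate 2) and 0 to 19 in tongue (19 without control replicate 1). The shares of all genes called were those above, with 1.84% and 0.89% in heart and stomach at 10 counts in every sample. The cause of these shifts was not tested.

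With the replicate number as a block, 5 of the 10 genes passed in heart and 0 in the other tissues, and the count of pathway genes was 5 in heart and 3 in stomach. Of all genes, 1.5% passed in heart, 1.06% in stomach and 0% in muscle and tongue with this block. Within a tissue the control and SN-011 samples share only a number, so the block has no pairing to rest on there. Among the control tissues the block changed no call of the 10 genes in any of the 3 comparisons.

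For striated minus stomach, where 0 of the 10 genes passed, 0 to 2 passed with 1 sample left out and 2 without control replicate 1 of every tissue (5.22% of all genes). Library size alone cut the genes called in tongue against muscle from 7 to 4, while 50.7% of all genes passed. Between heart and tongue, 0 to 1 passed with 1 sample left out, 2 by the exact test (39% of all genes) and 4 without control replicate 1 of every tissue (30.3%).

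Of the differences between control tissues, those that turned sign had missed the threshold, except Gabarapl1 in heart against muscle. With library size alone, heart minus muscle turned to 0.24 for Foxo1, 0.77 for Foxo3, 0.39 for Sesn1, 0.0872 for Gabarapl1 and 0.27 for Eif4ebp1, and tongue minus muscle to 0.46 for Foxo3 and 0.0797 for Sesn1. Without control replicate 1 of every tissue, heart minus muscle turned to 0.29 for Foxo1, 0.35 for Foxo3 and 0.0803 for Sesn1, and tongue minus muscle to 0.15 for Foxo3. With the replicate block, Foxo3 in heart minus muscle was 0.0005. With 1 sample left out, heart minus muscle ranged over -0.94 to 0.33 for Foxo1, -0.31 to 0.44 for Foxo3 and -0.76 to 0.11 for Sesn1, tongue minus muscle over -1.44 to 0.009 for Foxo1 and -0.60 to 0.15 for Foxo3, and heart minus tongue over -0.25 to 0.22 for Fbxo32, -0.29 to 0.0847 for Bnip3 and -0.19 to 0.0062 for Map1lc3b. Of the 10 genes, Trim63 in stomach, at 0 to 40 counts, was the one that depth limited.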
